A study of Neurospora crassa OR74A with 12 samples.

Results

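A set of 168 Neurospora crassa genes stood at higher RNA levels in the upf-1KO strain than in the WT strain both without H2O2 and with H2O2, and these genes are described here. They were selected on the measured levels themselves. CPM (read counts relative to a fixed library size), scaled between libraries with edgeR's TMM factors, were averaged over the 3 libraries of each group, and 0.5 CPM was added to each mean. A gene was a member when its highest group mean was at least 10 CPM, its untreated upf-1KO mean was at least 3 times the untreated WT mean, and its upf-1KO mean with H2O2 was at least 2 times the WT mean with H2O2. Of the 10685 genes in the table, 7878 passed the filter on low counts, all 168 members among them. The untreated limit alone was passed by 2.92% of the genes tested, the limit with H2O2 by 11.6% and both by 2.13%, and nothing is read from these shares, because the limits are the rule. The strain differences below are accordingly given as a description with no test.

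RNA came from mycelium, the network of hyphal cells in which this fungus grows, with 3 independent pools in each of 4 groups: untreated WT, untreated upf-1KO (the labels' upf1 knockout), WT with 20 mM H2O2 and upf-1KO with 20 mM H2O2. All 12 samples carry the strain label OR74A, the strain of the reference genome, whereas the study's methods place its strains in a shared bd background, with the 87-3 strain among the WT strains and a ku70 mutant as the host of gene deletion. In upf-1KO the upf-1 gene was replaced by a hygromycin resistance cassette, and no complemented strain is among these samples. The duration of the H2O2 treatment of the sequenced cultures is not given in the sources used here.

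UPF-1 is an RNA helicase that acts with UPF-2 and UPF-3 in nonsense-mediated mRNA decay (NMD), the pathway that removes mRNAs on which translation stops early. NMD also acts on normal mRNAs, and upstream open reading frames, long 3' UTRs and introns in the 3' UTR are known to bring an mRNA under it. A transcript that NMD degrades is held low in the WT strain and accumulates when a UPF factor is lost, but RNA levels alone do not separate slower decay from more transcription.

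The libraries held from 5891672 to 7703271 gene reads, and the factors that scaled the libraries differed between groups, from 1.30 to 1.53 in the untreated libraries, from 0.481 to 0.602 in the WT libraries with H2O2 and from 0.802 to 1.12 in upf-1KO with H2O2. Replicate 2 of upf-1KO with H2O2 stood apart, with Spearman correlations of 0.879 and 0.873 with the other libraries of its group, against 0.990 between those. Replicate 1 of WT with H2O2 had 0.952 and 0.953, against 0.986. The upf-1 gene itself, listed as prd-6 (NCU04242, chromosome V, 5327537 to 5332820 of the NC12 build, the build of every position given here), had 73.9, 74.4 and 68.7 CPM in untreated WT and 20.9, 22.9 and 20.7 CPM in untreated upf-1KO. With H2O2 it had 136, 177 and 140 CPM in WT and 63.4, 33.0 and 63.0 CPM in upf-1KO. The locus was lower in each upf-1KO library than in each WT library of the same condition, but reads were still counted on it. In RNA of whole mycelium, fewer cells that use a gene and less of its RNA per cell cannot be told apart.

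The members were 3.01 to 26.4 times as high in untreated upf-1KO as in untreated WT, with a median of 4.37, and 2.004 to 35.1 times as high with H2O2, with a median of 3.81. The medians over all 7878 genes tested were 0.917 and 1.12. The untreated ratio was at least 5 for 62 members and at least 10 for 8, and the ratio with H2O2 was at least 5 for 52 and at least 10 for 9. With TMM factors, the untreated ratio was the larger for 109 members and the ratio with H2O2 for 59. This split depends on the scaling. The factors of the strains differed more with H2O2, at 0.481 to 0.602 in WT and 0.802 to 1.12 in upf-1KO, than in the untreated libraries. Scaling to library totals alone would raise the ratios with H2O2 more than the untreated ones, and the split was not counted there. Together the members took from 1878 to 1976 CPM in WT and from 8807 to 9026 CPM in upf-1KO when untreated. With H2O2 their sum was between 2087 and 2523 CPM in WT and between 7407 and 9584 CPM in upf-1KO. The sums did not overlap between strains in either condition, which follows from the rule that chose these genes.

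**Figure D1:**
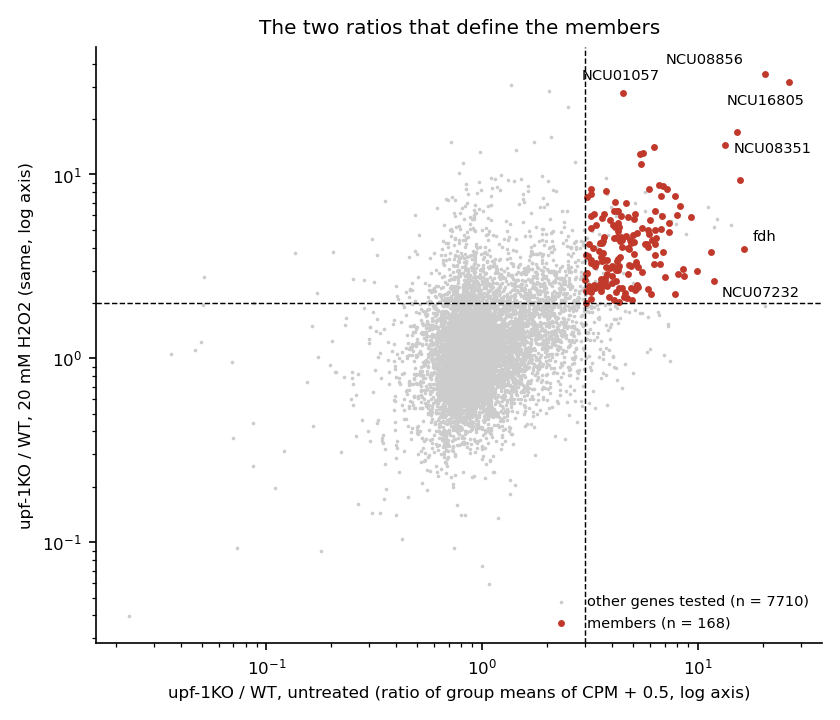
Ratio of upf-1KO to WT for each gene tested, without H2O2 on the x axis and with 20 mM H2O2 on the y axis, both on log axes and from group means of CPM plus 0.5; dashed lines are the limits of 3 and 2. The 168 members (red) fill the upper right field, from ratios of 3.01 and 2.004 up to 26.4 and 35.1, and the grey points in that field are genes whose highest group mean was under 10 CPM.

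The limits passed through a continuous range of values. The members nearest inside the untreated limit were NCU03337, a RecQ-type DNA helicase, with a ratio of 3.01, and NCU09144, a hypothetical protein, with 3.02. The genes nearest outside it were stk-20, at 2.99, and the laccase gene NCU02201, also at 2.99. Nearest inside the H2O2 limit were NCU02540 (meiotic expression up-regulated protein 14), with a ratio of 2.004 (it overlaps NCU02539), and NCU08549 (UDP-galactose 4-epimerase), with 2.03, and nearest outside were the F-box protein gene NCU10500, at 1.98, and NCU00351, at 1.96.

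Each untreated upf-1KO library was above each untreated WT library for all 168 members, and the same held in both conditions for 164 of them, beside a background of 9.98% of all genes tested. The rule used these values, so the count adds nothing to it. In the 4 others at least 1 library overlapped under H2O2. These were cat-2, gh13-2 and the hypothetical protein genes NCU05931 and NCU07502, the last a pair named after their values were seen. All 4 had replicate 2 of upf-1KO with H2O2 far from its group, but not on the same side. In gh13-2 and NCU07502 it was the low library that overlapped WT, at 4.23 and 13.85 CPM. In cat-2 and NCU05931 it was far above every WT library, and the other upf-1KO libraries overlapped WT. NCU05931, for example, had 5.26, 83.4 and 4.87 CPM in upf-1KO with H2O2, and its ratio of 2.27 was 0.399 without replicate 2 and 4.37 without replicate 1 of WT.

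The members had little RNA in WT mycelium. Their median level was 5.497 CPM in untreated WT and 5.62 CPM in WT with H2O2, against 30.7 and 22.9 CPM over all genes tested. In upf-1KO the medians were 29.0 CPM untreated and 23.3 CPM with H2O2, against 29.6 and 27.5 CPM over all genes. The members stood well below the median gene in WT and close to it without UPF-1, and the gap between the strains follows from the rule. The highest group mean lay in untreated upf-1KO for 94 members and in upf-1KO with H2O2 for 74. It was under 20 CPM for 51 members and at least 100 CPM for 26.

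The largest untreated ratio was that of NCU16805 (chromosome IV, 3192552 to 3193545), a hypothetical protein gene with 3 exons. It had 0.698, 0.596 and 0.663 CPM in untreated WT, at most 7 reads in a library, and 28.9, 31.9 and 29.1 CPM in untreated upf-1KO. With H2O2 it had 1.61, 0.706 and 0.955 CPM in WT and 45.6, 53.7 and 50.4 CPM in upf-1KO. This gene was nearly silent in each WT library and stood at a steady level in each upf-1KO library, with ratios of 26.4 and 31.7.

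The next was NCU08856 (chromosome V, 112883 to 115108), which encodes myo-inositol oxygenase, the enzyme that opens the ring of myo-inositol. It had 0.599, 0.199 and 0.773 CPM in untreated WT and 19.0, 21.1 and 21.5 CPM in untreated upf-1KO. With H2O2 no read was counted on it in any of the 3 WT libraries, while upf-1KO had 17.1, 15.3 and 18.8 CPM. Against a floor of 3 reads per library, it was at least 20.8-fold higher in upf-1KO under H2O2, and its ratio of 35.1 rests on the 0.5 CPM added. This floor lay between 0.263 and 1.06 CPM, and such floors cover counting error only.

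The gene for formate dehydrogenase, fdh (NCU03813, chromosome V, 2492005 to 2494322), which oxidises formate to CO2, differed between conditions. Its levels were 18.7, 20.4 and 21.7 CPM in untreated WT and 365, 331 and 324 CPM in untreated upf-1KO, a ratio of 16.4. With H2O2 they were 34.5, 23.3 and 21.7 CPM in WT and 111, 117 and 86.9 CPM in upf-1KO, a ratio of 3.92. The upf-1KO level was lower in each library with H2O2 than in each without it, while the WT libraries with H2O2 lay just above the untreated ones.

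NCU07232 (chromosome V, 6162382 to 6164419), an hsp30-like gene of the small heat shock proteins, which keep unfolded proteins from aggregating, had another pattern. It had 14.2, 10.7 and 13.5 CPM in untreated WT and 153, 159 and 158 CPM in untreated upf-1KO, a ratio of 11.8. Under H2O2 the values were 46.0, 57.2 and 60.7 CPM in WT and 156, 108 and 172 CPM in upf-1KO, a ratio of 2.65. Here the WT level was higher in each library with H2O2 than in each without it, while the upf-1KO libraries of both conditions overlapped.

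The other members with the largest untreated ratios were 3 genes of hypothetical proteins and an arabinofuranosidase gene. NCU16917 had means of 0.612 ± 0.179 and 16.9 ± 2.01 CPM (SD, n = 3) in untreated WT and upf-1KO, and NCU06156 had 1.07 ± 0.0618 and 23.3 ± 4.02 CPM. With H2O2 NCU06156 had no more than 1 read in any WT library, and the ratio of its reads, scaled to the libraries, was 62.5 with an exact 95% counting interval of 17.1 to 519. NCU08351 had 4.66 ± 0.720 and 68.2 ± 6.13 CPM untreated, and 11.97 ± 3.52 and 180 ± 84.2 CPM with H2O2. It overlaps NCU08350, and since the sources used here do not say whether strand was used in counting, its level is uncertain. NCU02343, an alpha-L-arabinofuranosidase gene whose product releases arabinose from plant polysaccharides, had 4.28 and 54.2 CPM untreated and 4.04 and 16.7 CPM with H2O2. So the leading members included genes with similar ratios in both conditions (NCU16805, NCU08351) and genes whose ratio was several times smaller with H2O2 (fdh, NCU07232, NCU02343).

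Other members had their larger ratio with H2O2. Under H2O2 the largest ratios after those of NCU08856 and NCU16805 were 27.8 for NCU01057, a taurine dioxygenase-like gene, 17.04 for NCU06156 and 14.5 for NCU08351. NCU05887, an oxidoreductase gene, had 14.1 and NCU02704, which encodes the E2 component of the branched-chain alpha-keto acid dehydrogenase that breaks down leucine, isoleucine and valine, had 13.1. NCU05499, for homogentisate 1,2-dioxygenase of tyrosine and phenylalanine breakdown, had 12.9. NCU05499 had 6.11, 27.3 and 5.21 CPM in upf-1KO with H2O2, and without replicate 2 its ratio was 5.94, close to its untreated ratio. No read was counted on it in the other WT libraries with H2O2 than replicate 1. The ratio of NCU05887 was 23.2 without replicate 1 of WT, and that of NCU02704 was 9.40 without replicate 2 of upf-1KO. The untreated ratios were 4.495, 6.25, 5.58 and 5.38 for NCU01057, NCU05887, NCU02704 and NCU05499. NCU01057, NCU05887, NCU02704 and NCU05499 were chosen for mention after seeing their values, and their WT means with H2O2, from 0.536 to 2.08 CPM, were only a few times the floor of 3 reads or below it.

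**Figure D2:**
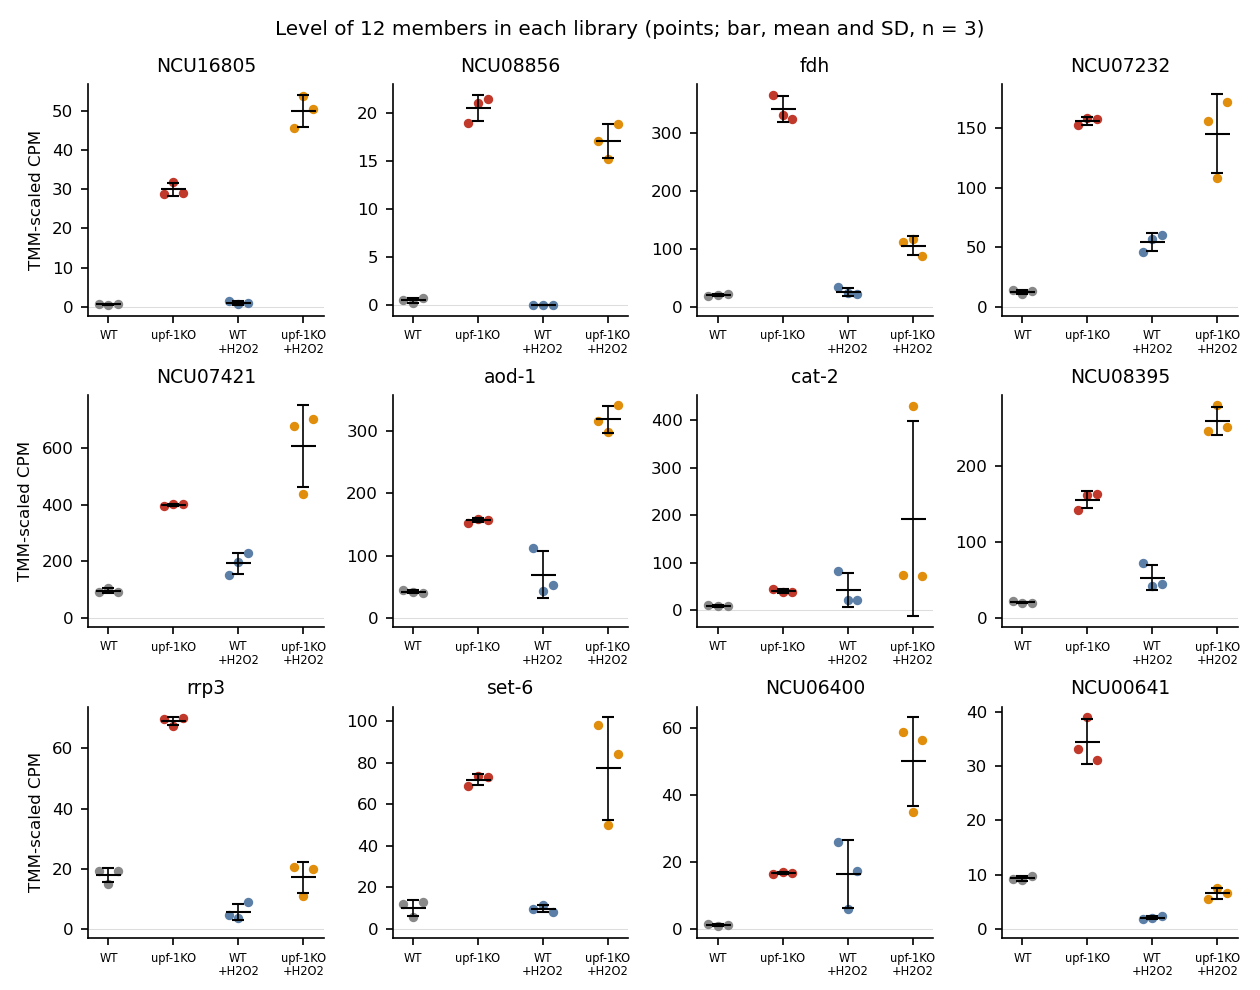
Level of 12 members in each of the 12 libraries, in TMM-scaled CPM (points), with the mean and SD of each group of 3 (bars); the 4 groups stand on the x axis of each panel. The upf-1KO libraries lie above the WT libraries of the same condition in every panel but that of cat-2 with H2O2. There replicate 1 of WT, at 83.2 CPM, lies above replicates 1 and 3 of upf-1KO, at 74.97 and 72.6 CPM, and replicate 2 of upf-1KO had 430 CPM.

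The members with the most RNA were not those with the largest ratios. NCU07421 (chromosome I, 5988632 to 5990867), a hypothetical protein gene with 8 exons, had 92.4, 105 and 92.6 CPM in untreated WT and 393, 401 and 400 CPM in untreated upf-1KO. Under H2O2 the values were 152, 196 and 228 CPM in WT and 678, 439 and 701 CPM in upf-1KO. It also led the members per length, at 415 CPM per kb of exon in its highest group, where the median over members was 17.8 CPM per kb. This median equalled that of all genes tested, 17.8 CPM per kb.

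NCU16396, a hypothetical protein gene that overlaps NCU09112, had the second highest group mean, with 176 and 558 CPM in untreated WT and upf-1KO and 149 and 348 CPM with H2O2. NCU03191, which encodes the Rab escort protein that presents Rab GTPases for prenylation, had 56.4 ± 2.40 and 233 ± 4.96 CPM untreated and 56.3 ± 5.02 and 357 ± 82.7 CPM with H2O2 (SD, n = 3). With TMM factors its WT means were almost equal in both conditions, and the libraries of the strains did not overlap. The hypothetical protein genes NCU04487 and NCU02194 were also among the 8 most abundant. NCU04487 had 24.3 and 156 CPM untreated and 55.1 and 278 CPM with H2O2, and NCU02194, which overlaps NCU02195, had 75.01 and 271 CPM untreated and 27.3 and 118 CPM with H2O2.

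Of the 168 members, 90 (53.6%) were described only as hypothetical proteins, and the descriptions of the other 78 were sorted into groups by their words. Oxidoreductases were the largest of these, with 23 members. A further 10 members were transport proteins, 8 were carbohydrate-active enzymes, 7 had roles in RNA processing, translation or unwinding of nucleic acids, 2 were regulators of transcription and 1 was a peptidase, and 27 had other descriptions. Only 14 members carried a gene symbol. Descriptions were not held for all genes tested, so these shares have no background and are not read as enriched or depleted.

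**Figure D3:**
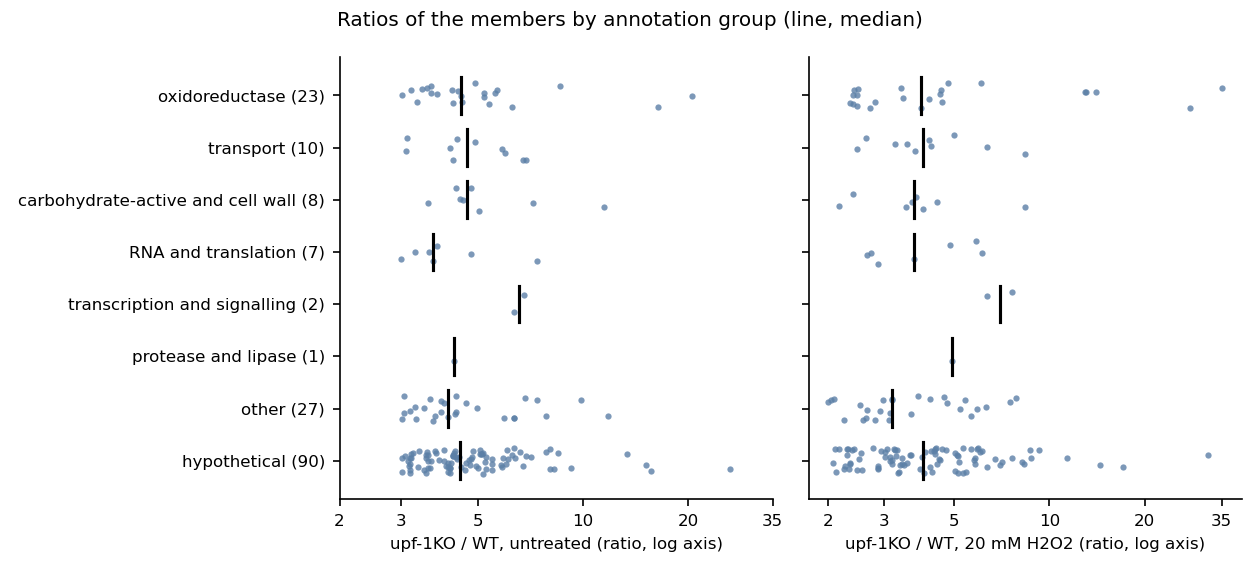
Ratio of upf-1KO to WT for each of the 168 members by annotation group, without H2O2 (left) and with 20 mM H2O2 (right), on log axes; points are genes, lines are group medians and the number of genes is in brackets. The median untreated ratio lay between 3.70 (RNA and translation) and 6.56 (transcription and signalling, 2 genes), and the largest ratios were among the oxidoreductases and hypothetical proteins.

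Among the oxidoreductases, 3 had symbols of enzymes of respiration and peroxide removal. The gene of alternative oxidase, aod-1 (NCU07953, chromosome IV, 1234976 to 1237012), which lets electrons bypass the cytochrome chain in mitochondria, had 45.6, 41.8 and 39.7 CPM in untreated WT and 153, 159 and 158 CPM in untreated upf-1KO. With H2O2 it had 113, 43.4 and 52.5 CPM in WT and 316, 298 and 341 CPM in upf-1KO. Its ratios were 3.66 and 4.55, and no library of one strain reached the other. The high WT value with H2O2 was that of replicate 1, a library that stood apart.

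cat-2 (NCU05770, chromosome VII, 3764986 to 3767954), the gene of a catalase-peroxidase, had 11.2, 8.45 and 8.06 CPM in untreated WT and 45.3, 39.2 and 37.6 CPM in untreated upf-1KO. Under H2O2 the values were 83.2, 21.9 and 21.7 CPM in WT and 74.97, 430 and 72.6 CPM in upf-1KO. One library in each strain was thus far above the others, replicate 1 in WT and replicate 2 in upf-1KO, and the strains overlapped. The ratio with H2O2 was 4.51, and it was 1.74 without replicate 2 of upf-1KO and 8.65 without replicate 1 of WT. cat-4 (NCU05169), another catalase gene, had 11.3 ± 2.198 and 56.9 ± 3.43 CPM untreated and 12.7 ± 6.01 and 31.3 ± 10.2 CPM with H2O2 (SD, n = 3), with ratios of 4.88 and 2.402. Without replicate 1 of WT the latter was 1.91.

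Among the other oxidoreductases were 3 dioxygenases of the taurine or xanthine kind. NCU09738 had 21.1 and 94.1 CPM untreated and 19.7 and 92.0 CPM with H2O2, NCU09800 had 12.3 and 46.3 CPM and then 13.9 and 87.1 CPM, and NCU01057 is described further below. The E2 component gene NCU02704 was a member together with NCU03913, the beta subunit of 2-oxoisovalerate dehydrogenase, which belongs to the E1 component of the same complex. NCU02704 had 4.81 and 29.1 CPM untreated and 2.08 and 33.1 CPM with H2O2, and NCU03913 had 8.46 and 28.2 CPM untreated and 7.95 and 28.6 CPM with H2O2. With TMM factors NCU03913 was thus close to equal in upf-1KO in both conditions, but the mean of NCU02704 with H2O2 rested on replicate 2. NCU02704 had 25.6, 51.9 and 21.8 CPM in that group, and without replicate 2 its mean was 23.7 CPM. The WT levels of these genes differed from each other. NCU09738, NCU09800, NCU02704 and NCU03913 were chosen for mention after seeing their values. The group also held NCU00641, described as the cytochrome c oxidase assembly factor Cox16, with 9.32 and 34.5 CPM untreated and 2.11 and 6.57 CPM with H2O2.

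The most abundant of the 10 transport genes were the MFS transporter NCU09654, the methionine permease NCU07754 and the sugar transporter NCU07607. NCU09654, which overlaps NCU11415, had 12.8 and 90.5 CPM untreated and 11.1 and 43.4 CPM with H2O2. NCU07754 had 13.3 and 42.4 CPM untreated and 35.2 and 87.2 CPM with H2O2, and NCU07607 had 5.89 and 42.3 CPM untreated and 3.48 and 12.5 CPM with H2O2. Their untreated ratios ranged over the group from 3.11 to 6.87 and those with H2O2 from 2.46 to 8.37.

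The carbohydrate-active genes were low in WT mycelium. gh7-2 (NCU04854) and gh7-1 (NCU05057), of a glycosyl hydrolase family that holds cellulases, had 3.83 and 3.502 CPM in untreated WT and 30.7 and 18.5 CPM in untreated upf-1KO. With H2O2 they had 2.34 and 3.17 CPM in WT and 23.3 and 14.1 CPM in upf-1KO. gh13-3 (NCU09486) and gh13-2 (NCU09805), of the family that holds amylases, had 4.201 and 3.09 CPM in untreated WT and 19.8 and 12.4 CPM in untreated upf-1KO, with ratios under H2O2 of 2.401 and 3.53. Without replicate 1 of WT with H2O2 the ratios under H2O2 of gh7-1 and gh13-2 were 7.60 and 5.42, against 3.98 and 3.53 with it. gh13-2 had 16 exons, the most of any member. NCU00643, an L-arabinitol 4-dehydrogenase of arabinose breakdown, fell in this group by its name, and had 8.31 and 39.4 CPM untreated and 24.2 and 53.0 CPM with H2O2.

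The RNA group held parts of the splicing machinery. NCU08395 (chromosome VII, 1106760 to 1109089), described as pre-mRNA splicing factor Dim1, a protein of the U5 snRNP, had 21.8, 20.4 and 20.1 CPM in untreated WT and 143, 161 and 163 CPM in untreated upf-1KO. With H2O2 it had 71.7, 42.3 and 44.7 CPM in WT and 246, 280 and 251 CPM in upf-1KO. NCU02000, a small subunit of splicing factor 3B whose gene overlaps NCU02001, had 17.9 and 65.9 CPM untreated and 9.98 and 38.6 CPM with H2O2. Outside the group by their wording but of spliceosome proteins in other fungi were NCU10388 (peptidyl-prolyl isomerase-like 3, overlapping NCU08512 and NCU14141), with 26.7 and 106 CPM untreated, and NCU00417 (cwf14), with 26.9 and 103 CPM untreated. NCU02000, NCU10388 and NCU00417 were chosen for mention after seeing their values, and no count over all splicing genes was made.

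Genes of RNA synthesis and rRNA processing were also in the group. rrp3 (NCU08435, chromosome II, 4056176 to 4061581), for an RNA-dependent RNA polymerase, had 19.2, 15.1 and 19.2 CPM in untreated WT and 69.7, 67.4 and 70.1 CPM in untreated upf-1KO. In the H2O2 libraries it had 4.60, 3.53 and 8.84 CPM in WT and 20.5, 11.03 and 19.8 CPM in upf-1KO, so it was lower with H2O2 in both strains. NCU00115, described as the rRNA-processing protein FCF2, had 23.6 and 78.9 CPM untreated and 20.2 and 126 CPM with H2O2. NCU04472, a DEAD/DEAH box helicase, had 53.0 and 197 CPM untreated and 30.9 and 85.3 CPM with H2O2.

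Both regulators of transcription had large ratios in each condition. set-6 (NCU09495, chromosome II, 4468613 to 4470618), of the SET-domain histone methyltransferases, had 11.97, 5.77 and 12.8 CPM in untreated WT and 68.9, 73.8 and 72.9 CPM in untreated upf-1KO. Its H2O2 libraries had 9.42, 11.6 and 8.12 CPM in WT and 98.2, 49.9 and 84.0 CPM in upf-1KO. The C2H2 zinc finger gene NCU00416 had 10.6 and 69.9 CPM untreated and 24.5 and 158 CPM with H2O2, with ratios of 6.35 in both conditions. It overlaps NCU00417, itself a member, so reads of the pair may have been shared. The carboxypeptidase gene NCU07536 was the only member of the protease group, with 6.13 and 27.8 CPM untreated and 3.04 and 16.9 CPM with H2O2.

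Members with other descriptions included biosynthetic genes. met-5 (NCU07001), of methionine synthesis, had 106 and 349 CPM untreated and 99.8 and 251 CPM with H2O2. NCU05421, for a lipoyltransferase that attaches lipoate to dehydrogenase complexes, had 25.8 and 113 CPM untreated and 72.7 and 233 CPM with H2O2. pho-2 (NCU01376), the gene of an alkaline phosphatase, had 5.46 and 37.2 CPM untreated and 5.86 and 22.7 CPM with H2O2. ro-12 (NCU07196), a ropy gene known for the distribution of nuclei in hyphae, had 14.9 and 97.2 CPM untreated and 14.8 and 63.6 CPM with H2O2, and it overlaps NCU07195. ci-1 (NCU05001), first known as a gene that cycloheximide induces, had 34.7 and 116 CPM untreated and 40.1 and 128 CPM with H2O2. The WT means of pho-2, ro-12 and ci-1 were close to equal without and with H2O2 when scaled with TMM factors. With libraries scaled to their totals alone, their log2 changes with H2O2 averaged over both strains were -1.28, -1.31 and -0.81. For met-5 the WT libraries had 162.7, 64.9 and 71.7 CPM with H2O2 against 96.98, 104.3 and 115.9 CPM untreated, and without replicate 1, the WT library that stood apart, the mean with H2O2 was 68.3 CPM.

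Of 9 genes of the NMD pathway and its described targets, the deleted upf-1 among them, none was a member, beside 2.13% of all genes tested. With so few genes this count is not read as a result, and some had ratios above 2. The gene of the eIF4A-type helicase of the exon junction complex, NCU01234, had 83.8 and 201 CPM untreated and 134 and 339 CPM with H2O2, ratios of 2.39 and 2.53. cpc-1, the bZIP activator of amino acid synthesis genes, had 1224 and 2841 CPM untreated, a ratio of 2.32, and 1795 and 1692 CPM with H2O2, a ratio of 0.942. cat-3, the main catalase of growing hyphae, had 94.4 ± 10.4 and 383 ± 6.80 CPM untreated (SD, n = 3), which is past the untreated limit at 4.04, and 308 ± 10.8 and 314 ± 72.6 CPM with H2O2, a ratio of 1.02. The casein kinase gene ck-1a had ratios of 2.39 and 1.88, arg-2, whose upstream reading frame responds to arginine, had 1.75 and 1.25, and ngf-1, a histone acetyltransferase gene that overlaps NCU00943 and NCU16421, had 1.74 and 2.44. The genes of UPF-2 (NCU05267) and UPF-3 (NCU03435) had untreated ratios of 1.30 and 1.02 and ratios with H2O2 of 0.664 and 1.08. So cat-3 was past the first limit and NCU01234 and ngf-1 past the second, and no gene of the list was past both. The ratio of ngf-1 with H2O2 rested on replicate 2 of upf-1KO, with 6.45, 15.5 and 3.36 CPM in that group, and was 1.47 without it. Without that library the ratio of NCU03435 was 0.580 and that of ck-1a 2.23, past the second limit.

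A measure that the rule did not use is the effect of H2O2 averaged over both strains, which was tested with edgeR's quasi-likelihood test over all 12 libraries. Calls needed a Benjamini-Hochberg adjusted p-value under 0.05, over all 7878 genes, and a log2 change reaching 1 or -1. Of the 168 members, 19 (11.3%) rose, beside 17.9% of all genes tested, and 29 (17.3%) fell, beside 20.0% of all genes tested. The other 120 (71.4%) were not called, against 62.1% of all genes tested. The median of the average log2 fold change was -0.14 over the members and -0.03 over all genes tested. The members' shares lay near or below the background in each direction, and no test of the list was made. Among the 62 genes that only the limit with H2O2 left out, 37.1% rose. The members' shares are thus not independent of the rule.

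**Figure D4:**
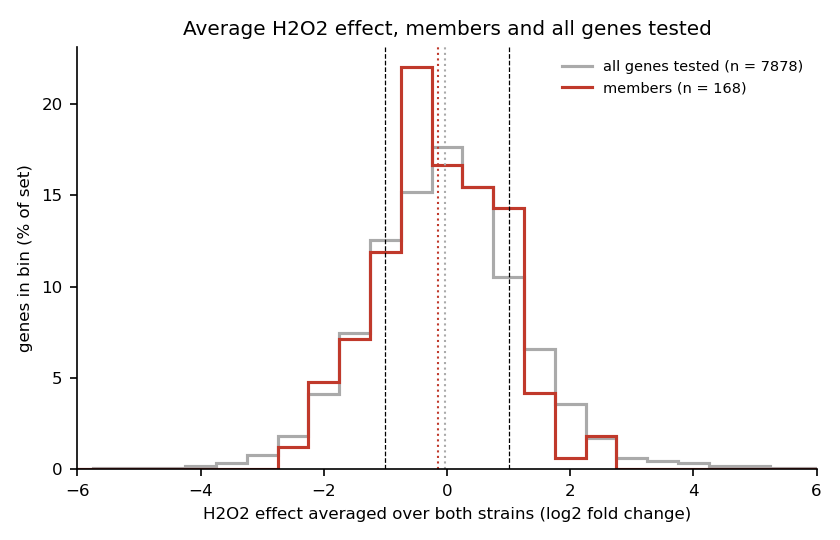
Distribution of the H2O2 effect averaged over both strains, as a log2 fold change on the x axis and the percentage of genes in bins of 0.5 on the y axis, for the 168 members (red) and all 7878 genes tested (grey). Dotted lines are the medians of -0.14 and -0.03, dashed lines the limits of -1 and 1, and the 2 distributions cover each other over most of their range.

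The members that rose most with H2O2 were NCU06400, NCU16625, NCU05844 and cat-2. NCU06400 (chromosome IV, 2635545 to 2636994), an amidohydrolase gene, had 1.497, 0.895 and 1.33 CPM in untreated WT and 25.97, 5.998 and 17.2 CPM in WT with H2O2. In upf-1KO it had 16.3, 17.1 and 16.8 CPM untreated and 58.9, 34.8 and 56.3 CPM with H2O2. It was higher with H2O2 in each library of both strains, by 2.66 on average on the log2 scale (edgeR adjusted p = 1.3e-05, standard error 0.30). The hypothetical protein genes NCU16625 and NCU05844 rose by 2.31 and 2.25 on the log2 scale, with adjusted p-values of 1.7e-05 and 7.1e-06 from edgeR. NCU16625 went from 0.560 to 5.205 CPM in WT and from 5.07 to 13.5 CPM in upf-1KO, and it was higher with H2O2 in 6 of 6 libraries. cat-2 rose by 2.22 on the log2 scale (edgeR adjusted p = 0.0017, standard error 0.49). Its value was 1.53 without replicate 2 of upf-1KO with H2O2 and 1.69 without replicate 1 of WT with H2O2, and it stayed called without either.

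The members that fell most were NCU08856, NCU00641, NCU08414 and NCU00033. NCU00641, the Cox16 gene, had 9.18, 8.95 and 9.83 CPM in untreated WT and 1.84, 2.12 and 2.39 CPM in WT with H2O2, and in upf-1KO 33.2, 39.1 and 31.2 CPM untreated and 5.597, 7.57 and 6.55 CPM with H2O2. On average its log2 value was -2.26 (edgeR adjusted p = 3.7e-07, standard error 0.16), and the ratio between the strains was 3.56 untreated and 2.705 with H2O2. NCU08414, a hypothetical protein gene that overlaps NCU08415, and NCU00033, for an integral membrane protein, had average log2 fold changes of -2.25 and -2.09 with adjusted p-values of 0.00016 and 1.6e-05 from edgeR. NCU00033 had no more than 2 reads in any WT library with H2O2, and its reads there gave a ratio between the strains of 18.5 with an exact 95% counting interval of 7.06 to 69.0. NCU08856 had -2.66 (adjusted p = 0.0038), but with 0 reads in WT under H2O2 this value depends on the prior count of the fit. In upf-1KO alone NCU08856 had 20.5 and 17.1 CPM without and with H2O2.

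The groups were small, and their counts are given beside 17.9% higher and 20.0% lower over all genes tested, with no test. In the RNA group 1 of 7 members rose (NCU08395, log2 1.04, adjusted p = 3.4e-05 from edgeR) and 1 fell (rrp3, log2 -1.82, adjusted p = 2.2e-05). Of the oxidoreductases 2 of 23 rose (8.70%) and 7 fell (30.4%), of the transport genes 1 of 10 rose (NCU07754, log2 1.22, adjusted p = 2.6e-05) and 3 fell (30.0%), and of the 8 carbohydrate-active genes none was called in either direction. Among the hypothetical proteins 11 of 90 rose (12.2%) and 12 fell (13.3%). NCU08395 lost its call at a log2 value of 0.87 without replicate 1 of WT with H2O2. Of the most abundant members, NCU02194 fell (log2 -1.33, adjusted p = 4.1e-07) and NCU04487 rose at the limit (log2 1.01, adjusted p = 0.00089), and the value of NCU04487 was between 0.86 and 1.17 with any 1 library left out, under the limit in 9 of 12 cases.

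The number of these H2O2 calls in each direction depended on how the libraries were scaled. With library totals alone in place of TMM factors, the median of all genes tested moved from -0.034 to -0.9999 and that of the members from -0.14 to -1.12, and 4 members (2.38%) were called higher and 90 (53.6%) lower, beside 5.03% and 49.0% of all genes tested. The 4 were among the 19 above, and all 29 lower calls held. Relative to all genes tested, the members' median was lower by 0.10 with TMM factors, by 0.12 with totals and by 0.10 with RLE size factors. Of all calls among members, 39.6% were higher with TMM factors, 46.2% with RLE size factors and 4.26% with totals. The shares over all genes tested moved the same way, at 47.2%, 52.8% and 9.30%.

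Within each strain the H2O2 effect shares its libraries with the rule and is given as values only. In WT the members' log2 fold changes with H2O2 ran from -5.05 to 3.73, with a median of -0.05, where the median of all genes tested was -0.13. In upf-1KO they ran from -2.39 to 2.24, with a median of -0.12, where that of all genes was 0.08. The range was thus narrower in upf-1KO, but its lower end in WT was NCU08856. That gene had 0 reads in WT with H2O2, so its value depends on the prior count of the fit. The rule also chose genes with less RNA in WT than in upf-1KO, where few reads make values less certain in WT. A log2 value of at least 1 was seen for 35 members (20.8%) in WT and 12 (7.14%) in upf-1KO, against 20.0% and 19.4% of all genes tested, and a value of at most -1 for 29 (17.3%) and 36 (21.4%), against 26.7% and 17.1%. The rule set limits on the strain ratio in both conditions, so these counts are not independent of it. The sign was positive in both strains for 60 members and negative in both for 74.

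**Figure D5:**
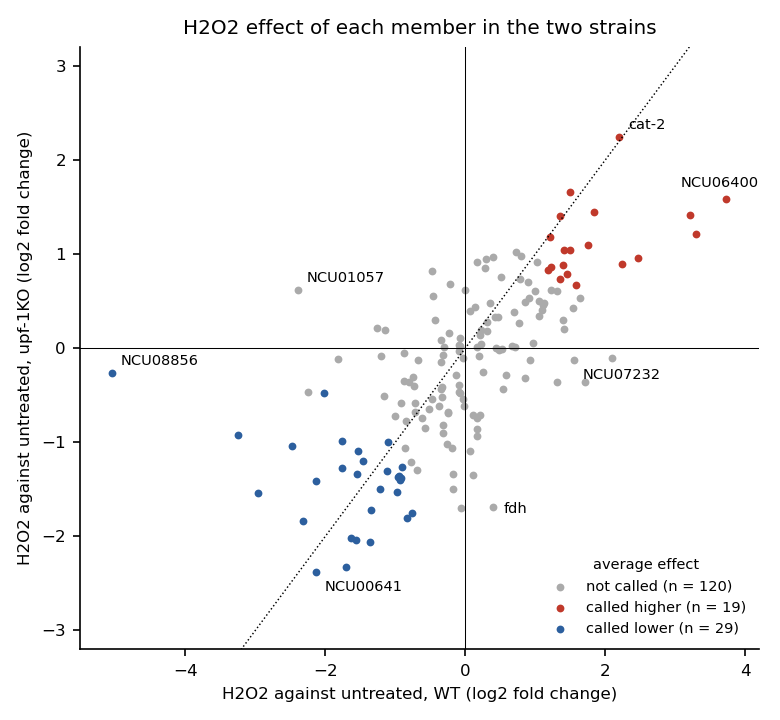
H2O2 effect of each of the 168 members as a log2 fold change in WT (x axis) and in upf-1KO (y axis), coloured by the call on the average of both; the dotted line marks equal effects. Values run from -5.05 (NCU08856, with 0 reads in WT with H2O2) to 3.73 in WT and from -2.39 to 2.24 in upf-1KO. NCU01057 and fdh lie in the fields of opposite sign among other members whose libraries overlapped.

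Only NCU01057 and fdh, 1.19% of the members against 2.48% of all genes tested, had each library with H2O2 on one side of each untreated library in WT and on the other side in upf-1KO. NCU01057 (chromosome V, 2785329 to 2787316) had 4.19, 5.67 and 6.74 CPM in untreated WT and 0.689, 0.353 and 1.91 CPM in WT with H2O2, but 27.9, 27.3 and 24.7 CPM in untreated upf-1KO and 48.3, 30.4 and 43.7 CPM in upf-1KO with H2O2. For fdh, the lowest WT library with H2O2, at 21.73 CPM, was barely above the highest untreated one, at 21.65 CPM. With the libraries scaled to their totals, neither gene had this pattern.

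The members' gene models were much like those of other genes. The median member had 2022 bases of exon and 2 exons, and the other 7710 genes tested had medians of 2215 bases and 2 exons. A single exon was found in 36 members (21.4%) and in 20.9% of the other genes, and 5 or more exons in 14 members (8.33%) and in 9.75% of the others. Fewer members overlapped another gene, 27 (16.1%) against 26.1% of the others, and all 168 were protein-coding. UTRs, upstream reading frames and introns after the stop codon were not analysed here.

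Members lay on all 7 chromosomes, from 1.39% of the tested genes of chromosome V (18 members) to 3.02% of those of chromosome VII (24 members), with 23 of the 767 tested genes of chromosome VI. Chromosome I held the most, 43. In gene order, 22 members (13.1%) were directly next to another member, in 11 pairs, whereas 2.98% of the other genes tested were next to a member. Within 10 genes to either side, 61 members (36.3%) had another member, against 25.5% of the other genes tested. The gaps within the 11 pairs had a median of 544 bases and reached 4465 bases, and 1 pair, NCU00416 and NCU00417, overlapped by 111 bases. Since strand was not given, reads that run from a gene into its neighbour could not be separated, and their part in these pairs was not tested.

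Several pairs joined genes already described. NCU00641 lies 368 bases from NCU00640, a hypothetical protein gene, on chromosome I, and NCU02343 lies 939 bases from NCU02342 on chromosome VII. gh7-1 lies 304 bases from NCU05058 on chromosome VI, and ci-1 lies 106 bases from NCU12150 on the same chromosome. NCU05843, described as an ammonium transporter, lies 544 bases from NCU05844, the hypothetical protein gene that was among the largest increases with H2O2. NCU05843 itself had 5.79 and 19.1 CPM untreated and 3.21 and 14.98 CPM with H2O2, so these neighbours differed in their H2O2 effect. The neighbours were named because of their position.

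The library that stood apart was mostly low for the members. Replicate 2 of upf-1KO with H2O2 had the lowest of the 3 values for 110 members (65.5%) and the highest for 40 (23.8%), against 44.4% and 45.3% of all genes tested. Its value was 0.715 times the mean of the other libraries of its group for the median member and 0.999 times over all genes. Without it, on the same scaling, the median ratio with H2O2 was 3.79 in place of 3.81, and 162 of 168 members were still at 2 or more. Without replicate 1 of WT with H2O2 the median was 4.25, and 163 members were still at 2 or more. The median coefficient of variation of the members within groups was 14.7% in untreated WT, 6.85% in untreated upf-1KO, 32.1% in WT with H2O2 and 26.0% in upf-1KO with H2O2.

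When the whole selection was repeated with each of the 12 libraries left out, between 160 and 183 genes met the rule, and 123 members (73.2%) met it in all 12 runs. The 45 others failed in at least 1 run, and 29 of them in more than 1. The most members were lost without replicate 1 of upf-1KO with H2O2 (14) and without replicate 2 of WT with H2O2 (13), and the fewest without replicate 1 of untreated WT (6). Among the named genes, aod-1, fdh, set-6, rrp3, gh7-1, gh7-2, gh13-2, ci-1, pho-2 and ro-12 met it in all 12, cat-2 and met-5 in 11, cat-4 and gh13-3 in 10 and NCU08549 in 8.

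A further 62 genes had a highest group mean of at least 10 CPM and passed the untreated limit but not the limit with H2O2, so that 73.0% of the 230 genes past the untreated limit were members. These 62 genes had a median log2 fold change with H2O2 of 1.45 in WT and of -0.20 in upf-1KO, where the members had -0.05 and -0.12. In the average effect 23 (37.1%) of the 62 rose and 9 (14.5%) fell, beside 11.3% and 17.3% of the members. Both sets were cut from the strain ratio with H2O2, so the difference was not tested. cat-3 was among the 62.

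Genes of conidiation, the asexual spore formation that mycelium can begin, were read beside these results. Of eas, con-6, con-8 and con-10, none was a member, beside 2.13% of all genes tested. With so few genes this count is not read as a result. The hydrophobin gene eas had 9779 and 7632 CPM in untreated WT and upf-1KO and 1259 and 12810 CPM with H2O2. con-6 had 1.17 and 3.66 CPM untreated and 0.347 and 19.2 CPM with H2O2, con-8 had 0.339 and 3.35 CPM and then 1.503 and 3.13 CPM, and con-10 had 0.405 and 1.10 CPM and then 1.61 and 2.18 CPM. All 4 had higher means in upf-1KO with H2O2 than in WT with H2O2, and 3 of 4 also without it. The part of such development in the members' levels was not tested.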

How the data were processed

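RNA-seq of 12 mycelium libraries, 3 in each of 4 groups, was used. Alignment by the authors used HISAT2 2.2.1 and the NC12 genome assembly, and counting used featureCounts (Subread 2.0.1), per the submitters' processing notes and the study's methods, and the deposited counts are whole reads per gene without normalization. The authors also deposited FPKM values from the same reads, which were not used. The methods name a pair of sequencing instruments without assigning them to samples. Groups came from genotype and treatment in the sample titles. No sample column was left out.

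The analysis used edgeR 4.0.16 in R 4.3.3 (TMM factors, filterByExpr by the 4 groups, glmQLFit and glmQLFTest over all 12 libraries with a mean per group). CPM used the TMM-scaled library sizes, and CPM per kb used the deposited exon length. The tested contrast was the mean of the H2O2 effects of both strains, and standard errors came from the fold change and its F statistic. The model was checked on simulated counts in which H2O2 changed 200 genes. These counts held no strain effect and no library that stood apart, so the check does not bear on those features of the data. Where a WT group had no more than 3 reads in any library, ratios were given as a bound or with an exact binomial interval, which cover counting error only. Tables were summarised in Python 3.11.15 with pandas 2.3.3. Gene symbols came from a RefSeq table of NC12 that matched 10588 of 10685 identifiers, and descriptions came from the gene names in the study's supplementary tables, with no values taken from them.

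The members, the gene lists and the tests were chosen with earlier results of these data known. Genes were named by rule: members with a symbol, the 8 with the largest untreated ratio, the 8 with the highest group mean, the 4 largest increases and 4 largest decreases called for H2O2, the 2 nearest each limit on both sides, the NMD list, and the 3 most abundant of each annotation group. Genes named otherwise are marked. The alternatives were DESeq2 1.42.0, RLE size factors, library totals, no filter, at least 10 counts in every library, the replicate number as a block, other thresholds and floors, group medians and each library left out. Applying the floor of 10 CPM after adding 0.5 CPM, and the ratios of single genes without either library that stood apart, were chosen after seeing the data. Same-numbered libraries of different groups had correlated deviations of -0.264 to 0.245 over 18 pairs, with 3 above 0.1. A pair with different numbers reached 0.296, so these values gave no sign of pairing by replicate number. They cannot tell whether same-numbered cultures were handled together.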

Additional observations from a re-analysis of the deposited data

Results flagged for a closer look

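The H2O2 effects of NCU01057 and fdh went opposite ways in the strains, in every library. The margin was small for fdh in WT, at 21.73 CPM in the lowest H2O2 library and 21.65 in the highest untreated one. The log2 fold change of NCU01057 was -2.39 in WT and 0.62 in upf-1KO, and that of fdh was 0.39 in WT and -1.69 in upf-1KO. The difference was not tested, since it is the difference of the 2 strain ratios that chose the members, and with library totals alone neither gene showed it.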

How the results depend on the processing

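The number of genes that met the rule was 168, and it was 277 with library totals alone, all 168 members among them, and 110 when at least 10 counts were required in every library, 93 of them members. All other settings gave 117 to 197 genes, and leaving out 1 library gave 160 to 183. Members called for the average H2O2 effect numbered 19 higher and 29 lower. These were 4 and 90 with library totals alone, 12 and 9 with at least 10 counts in every library, where 93 members were left to test, and 43 and 58 at an adjusted p under 0.05 with any fold change. Leaving out 1 library gave 17 to 23 higher and 28 to 37 lower. DESeq2 and RLE size factors each gave 24 and 28. The replicate block gave 18 and 32, though the libraries gave no sign of pairing by number. The block ended the call of NCU04487 (log2 0.98) and called NCU04472 (log2 -1.03). With totals the value of NCU04487 reversed to -0.010, and 5 of the 46 named members lost their call and 14 gained 1. Its cause was not tested. Genes near 10 CPM carried few reads in WT, which limits their ratios.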
